A study of Mus musculus with 12 samples.

Results

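The genes described here are 9 genes for cardiac potassium channels and one of their accessory subunits: *Kcnj2*, *Kcnj3*, *Kcnj5*, *Kcnj11*, *Kcnj12*, *Kcnq1*, *Kcnh2*, *Kcnd2* and *Kcnip2*. Their data are the H3K27ac-enriched regions that overlap each gene body with 5 kb added on each side, which is called the gene window below. For *Kcnj2*, regions farther away whose nearest transcription start site (TSS) is that of *Kcnj2* were also taken. The windows held 52 of the 53754 regions of control cardiomyocytes (CMs) and 44 of the 45521 regions of RIP140-null CMs (KO). All 9 genes were marked at a promoter in both genotypes. The length that regions covered inside a window was more than 1.5-fold higher in KO CMs at none of the genes. It was more than 1.5-fold lower at 1 of 9, *Kcnd2*.

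H3K27ac is an acetylated form of histone H3 found at active enhancers and promoters, and CUT&RUN maps it by sequencing DNA that an antibody-tethered nuclease releases from chromatin. It was profiled in CMs of csNrip1-/- mice (Nrip1 f/f, Cre+) and of Cre- littermates (Nrip1 f/f), so both genotypes carried the floxed alleles. Nkx2.5-Cre, which acts in cardiac progenitors from early heart development, removed *Nrip1*, the gene for the nuclear receptor corepressor RIP140. CMs were taken at 10 to 12 weeks of age, with 200000 CMs per experiment, 3 H3K27ac replicates and 3 IgG replicates per genotype. Each genotype is represented by 1 list of the regions found in at least 2 of its 3 replicates. The lists give positions and no signal, so neither sequencing depth nor replicate error can be given, and no test between genotypes was possible. All values below describe these 2 lists. Positions are on GRCm38 and genes follow GENCODE M21. A region that overlaps one of the other genotype by 1 bp or more is called shared, and any other is called KO-only or control-only. The number of replicate peaks that the authors' software merged into a region, called subpeaks here, stands in its name, and a region with 2 subpeaks rests on 1 peak in each of 2 replicates.

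Potassium channels carry the outward currents that repolarize CMs after each beat and hold their resting potential. Inward rectifiers (Kir channels, *Kcnj* genes) pass current near the resting potential, whereas voltage-gated channels (Kv channels) open upon depolarization and end the action potential. In the mouse ventricle, repolarization rests largely on the transient outward current and other fast Kv currents. The slow and rapid delayed rectifiers encoded by *Kcnq1* and *Kcnh2* carry more weight in large mammals, and mutations of the human genes cause long QT syndromes.

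The lists were checked for the cell type they are labelled as. Promoters of 8 of 8 CM marker genes were covered in both lists, and the summed covered length of these 8 genes was 123284 bp in control and 153556 bp in KO CMs. In the last exon of *Nrip1*, which holds the coding sequence, the control list covered 2904 of 7616 bp and the KO list 0. Of 5 atrial marker genes, the promoter of *Myl4* alone was covered, in both lists, and *Myl7* and *Sln* held no region. The promoter of 1 of 4 nodal marker genes, *Tbx3*, was covered in both lists. Promoters of endothelial marker genes were covered for 4 of 4 in control and 3 of 4 in KO CMs, with 93262 and 100664 bp covered in all. Fibroblast promoters were covered for 1 and 0 of 5 genes, macrophage promoters for 0 of 4 in both lists, and smooth muscle or pericyte promoters for 1 and 2 of 4. The part of other cell types in the values below was not tested.

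Across the 9 windows, 12 of 52 control regions were control-only (23.1%, 95% Wilson interval 13.7 to 36.1) beside 29.5% of all control regions. Likewise, 10 of 44 KO regions were KO-only (22.7%, 12.8 to 37) beside 21.5% of all KO regions. These intervals cover counting error only and treat regions as independent, although *Kcnq1* alone held 17 of the control and 15 of the KO regions. Both member shares had intervals that included the share of the whole list. A KO-only region was present at 5 of the 9 genes, and so was a control-only region. Among protein-coding genes with a region in either list, 35.2% had a KO-only and 39.2% a control-only region, and the number at a gene depends on how many regions its window holds. *Kcnj2*, *Kcnj11* and *Kcnip2* had neither kind within their windows. Of the 12 control-only regions, 11 lay in introns, and of the 10 KO-only regions 9 did, judged by their centers. Most regions at the 9 genes were intronic, with 40 of all 52 control and 33 of all 44 KO regions.

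**Figure D1:**
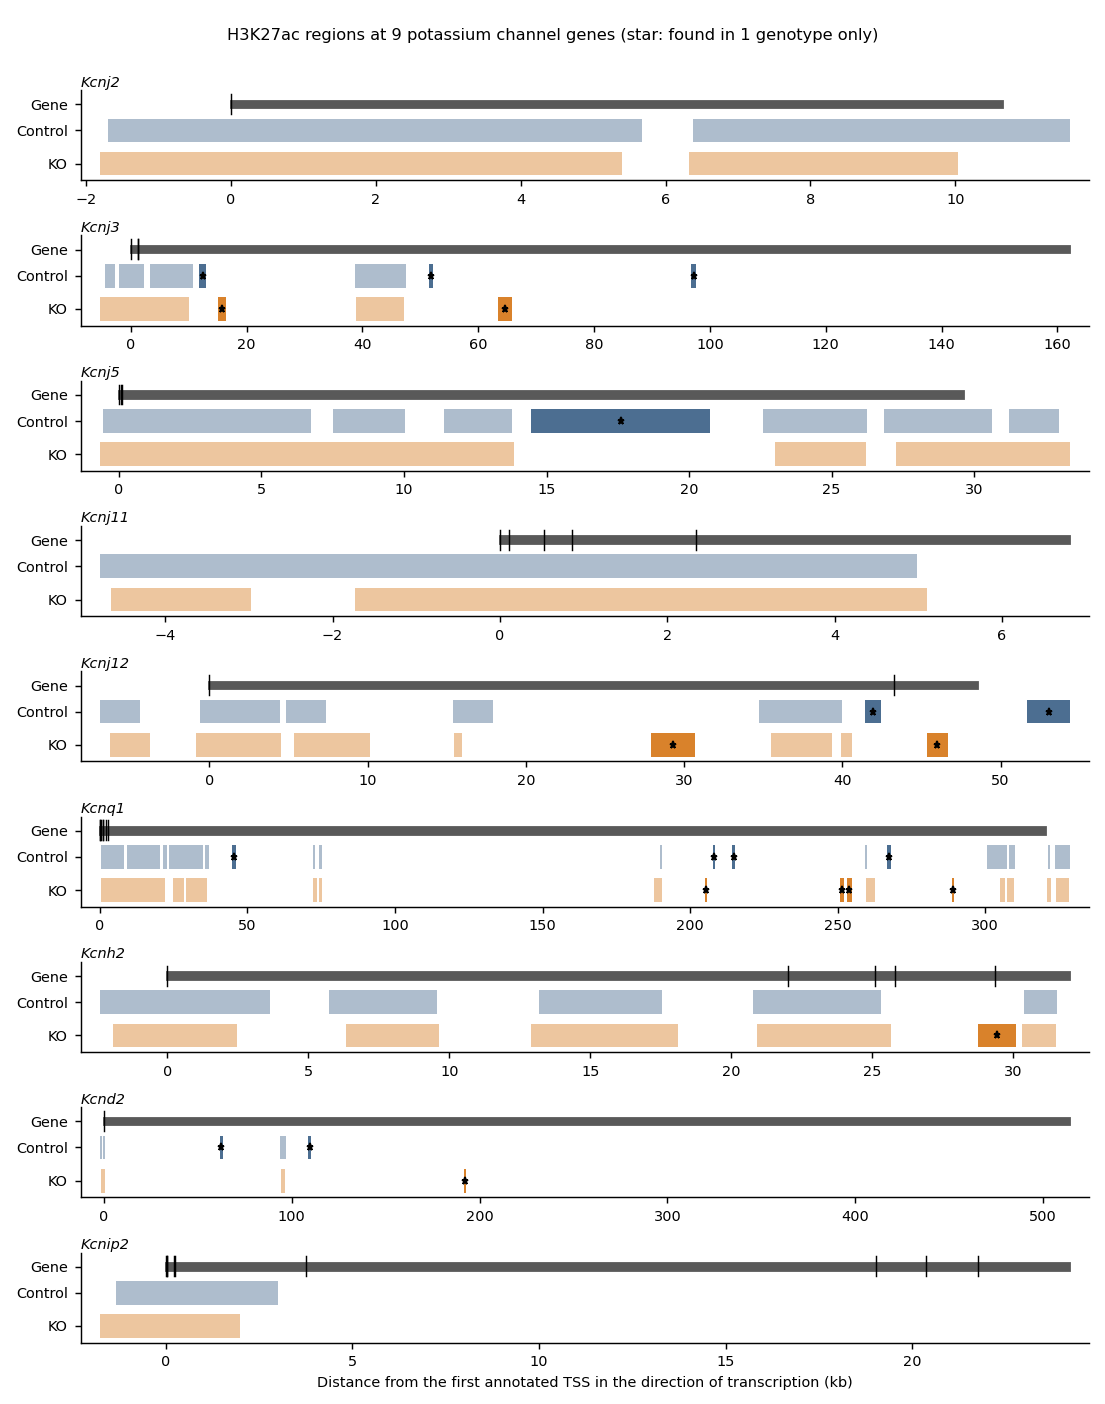
Each panel shows 1 gene, with the distance from its first annotated TSS in kb on the x axis, its annotated TSSs as ticks on the gray gene body, and control (blue) and KO (orange) H3K27ac regions as bars below. Starred dark bars are the 12 control-only and 10 KO-only regions, which lie away from the first TSS of every gene.

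The genotype-only regions rested on few replicate peaks. All 10 KO-only regions and 11 of the 12 control-only regions had 2 subpeaks, the lowest number possible, compared with 8 of 34 shared KO regions and 19 of 40 shared control regions. In the whole lists, 2 subpeaks were found for 87.8% of the KO-only and 94.3% of the control-only kind, and for 53.6% and 58.3% of shared KO and control regions. Subpeaks count merged peaks, and the number of replicates behind a region with more than 2 of them is not given. Genotype-only regions were also narrow, with a median width of 1310.5 bp for KO-only and 1253 bp for control-only regions at the 9 genes, against 3733.5 and 3728 bp for shared ones. The whole lists showed the same, with medians of 1279 bp for KO-only and 1045 bp for control-only regions, against 2694 and 2404 bp for shared ones. The single genotype-only region at the 9 genes with more than 2 subpeaks was a control-only region of *Kcnj5* with 4, described below.

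**Figure D2:**
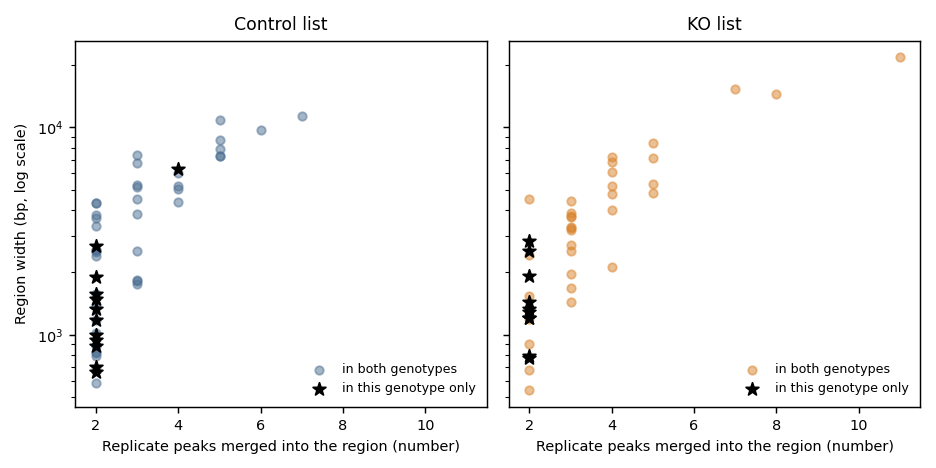
Width of each region at the 9 genes in bp (log scale) against the number of replicate peaks merged into it, for the control list (left) and the KO list (right), with stars for regions found in 1 genotype only. All stars sit at 2 subpeaks but 1, the 6278-bp control-only region of *Kcnj5*.

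The covered share of the gene window, which allows genes of different length to be compared, followed the same order in both lists. *Kcnj5* was covered most, at 69.8% of its window in control and 60.1% in KO CMs, followed by *Kcnj2* (60.9% and 52.9%), *Kcnj11* (58.1% and 50.7%) and *Kcnh2* (47.4% and 48.1%). *Kcnj12* followed at 32.4% and 35.2%, *Kcnq1* at 15.7% and 16.0%, *Kcnj3* at 14.5% and 15.9%, *Kcnip2* at 12.6% and 11%, and *Kcnd2* at 1.6% and 1.0%. The median of all protein-coding genes with a region in either list was 11.4% in control and 12.4% in KO CMs. *Kcnj5* stood at the 98.9th percentile of those genes in the control list and *Kcnj2* at the 97.8th, while *Kcnd2*, a gene of 514303 bp, stood at the 9.7th. The shares are taken over the whole gene body, and *Kcnip2*, of 24223 bp, was the one short gene among the 4 least covered. Neighbors in this order cannot be separated, since no replicate spread is known.

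**Figure D3:**
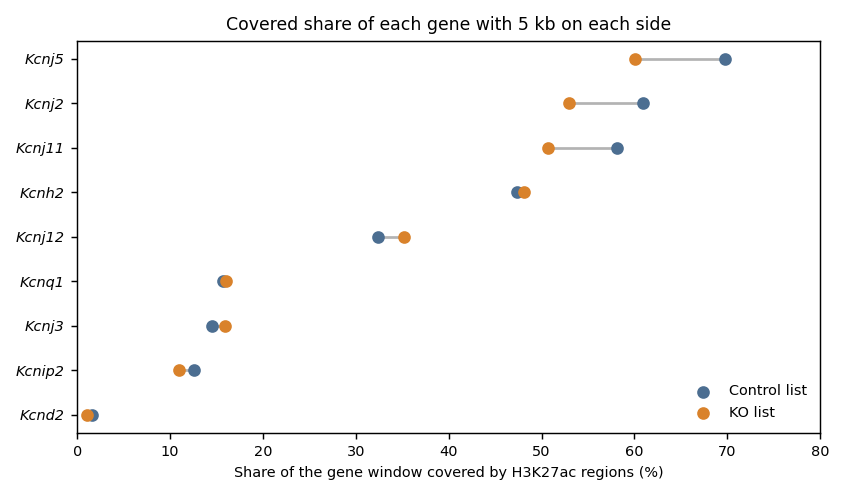
Share of each gene window covered by H3K27ac regions (%, x axis) for the 9 genes, with blue points for the control list and orange points for the KO list. The order of the genes is the same in both lists, from *Kcnj5* at 69.8% and 60.1% down to *Kcnd2* at 1.6% and 1.0%.

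Summed over the 9 windows, control regions covered 178.7 kb and KO regions 173.4 kb, a log2 ratio of KO over control of -0.043. The covered length was lower in KO CMs at 5 genes (*Kcnj2*, *Kcnj5*, *Kcnj11*, *Kcnd2* and *Kcnip2*) and higher at 4 (*Kcnj3*, *Kcnj12*, *Kcnq1* and *Kcnh2*). The median log2 ratio was -0.20, with a range from -0.70 to 0.14, and the median of 12989 protein-coding genes was 0.084, with -0.80 and 1.12 at the 5th and 95th percentiles. The sign of the members' median depended on the window, since it was 0.021 over gene bodies alone and 0.012 with 10 kb added on each side. Covered length was over 1.5-fold higher in KO CMs at 0 of 9 genes, beside 16.3% of all protein-coding genes with a region in both lists. It was over 1.5-fold lower at 1 of 9, beside 8.6%. The part of the covered length that both lists held was a median of 68.3% of their union at the 9 genes and 63.6% at all genes.

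**Figure D4:**
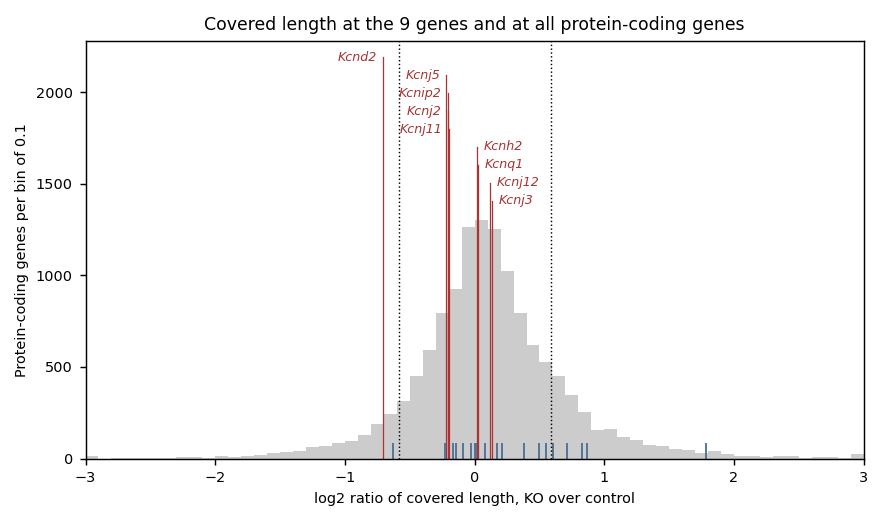
Histogram of the log2 ratio of covered length, KO over control, for 12989 protein-coding genes (gray, y axis in genes per bin of 0.1, outermost bins holding all values beyond), with the 9 genes as red lines whose heights carry no value and 19 other potassium channel genes as blue ticks. Dotted lines mark 1.5-fold, and *Kcnd2* at -0.70 is the single red line outside them.

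*Kcnj2* (ENSMUSG00000041695, chr11:111066164-111076821, plus strand) encodes Kir2.1, the main subunit of the inward rectifier current that sets the resting potential of ventricular CMs. Its promoter carried 1 wide region in both lists, of 7378 bp with 3 subpeaks in control and 7212 bp with 4 subpeaks in KO CMs. The 250 bases upstream of its RefSeq start (GRCm38.p6, chr11:111065914-111066163, plus strand) were covered in full by both lists. They are printed with GC boxes (GGGCGG) and an E-box (CACGTG) in capitals, both searched on both strands, because this stretch lies within the region that stayed in place between genotypes.
Kcnj2 promoter: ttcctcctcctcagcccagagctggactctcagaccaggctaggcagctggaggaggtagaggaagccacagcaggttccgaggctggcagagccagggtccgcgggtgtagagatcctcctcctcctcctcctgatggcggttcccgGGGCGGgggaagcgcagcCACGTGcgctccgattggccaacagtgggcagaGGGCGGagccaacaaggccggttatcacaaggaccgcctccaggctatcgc
With the next 50 bases included, this promoter had a GC content of 66.7% and 18 CpGs, above the medians of 52.7% and 7 over 32851 RefSeq promoters of 300 bp. It held 2 matches to the GC box, which 35.7% of all promoters hold at least once, and 1 to the E-box, held by 7.15%. It held no match to TATAAA, which 13.6% hold.

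A second region lay over the last exon of *Kcnj2*, which carries the whole coding sequence. It was 5211 bp wide in control CMs (chr11:111072539-111077749, 4 subpeaks) and 3718 bp in KO CMs (chr11:111072486-111076203, 3 subpeaks). The starts of the 2 regions thus nearly coincided and the KO region ended earlier, inside the exon. Of the 5273 bp of this exon, 4576 were covered in control and 3736 in KO CMs. In the whole window, 12589 bp were covered in control and 10930 bp in KO CMs, a log2 ratio of -0.20.

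Matches to consensus motifs of factors active in CMs were looked up in these regions: TCAAGGTCA for the estrogen-related receptors (ERR), nuclear receptors of mitochondrial genes, AGATAAG for GATA factors, and the MEF2 consensus. Both strands were searched, and a match describes the letters only. *Kcnj2* had an ERR match and a MEF2 match in the intron part of the promoter region in both lists, and a further ERR match downstream of the gene that only the wider control region reached. The 3 stretches are shown with 30 bases on each side (GRCm38, plus strand, matches in capitals), at chr11:111067485-111067553, chr11:111068357-111068426 and chr11:111077207-111077275.
Kcnj2 intron, ERR: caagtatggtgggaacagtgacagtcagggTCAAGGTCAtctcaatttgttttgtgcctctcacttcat
Kcnj2 intron, MEF2: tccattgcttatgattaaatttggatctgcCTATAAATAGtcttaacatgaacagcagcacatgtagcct
Kcnj2 downstream, ERR: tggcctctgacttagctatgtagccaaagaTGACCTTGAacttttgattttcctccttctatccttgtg
An ERR match occurred in 8.18% of all control and 9.85% of all KO regions, a MEF2 match in 9.61% and 11%, and a GATA match in 29.9% and 33.8%. These shares are per region of any width. The regions in the *Kcnj2* window stood at width percentiles 93.8 and 87.8 in the control and 91.0 and 72.3 in the KO list.

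Beyond the window, the regions with the nearest TSS at *Kcnj2* reached far downstream, where the next protein-coding gene, *Sox9*, starts 1705.4 kb away, while *Kcnj16* ends 38.2 kb upstream. Including the 2 regions of the window, control CMs had 6 such regions with centers 2.0, 9.0, 17.5, 22.6, 44.9 and 67.0 kb from the TSS, and KO CMs had 4, at 1.8, 8.2, 20.6 and 44.8 kb. The control regions at 17.5 and 22.6 kb (2132 and 6817 bp wide) were joined in the KO list into 1 region of 7900 bp with 5 subpeaks. The region near 44.9 kb was wider in KO CMs, with 2619 bp against 1030 bp, each with 2 subpeaks. The most distant one, chr11:111132423-111133883, was control-only, 1461 bp wide with 2 subpeaks, and lay 20131 bp from the closest KO region. All regions together covered 24029 bp in control and 21449 bp in KO CMs, a log2 ratio of -0.16, and those outside the window 11440 and 10519 bp, a ratio of -0.12.

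**Figure D5:**
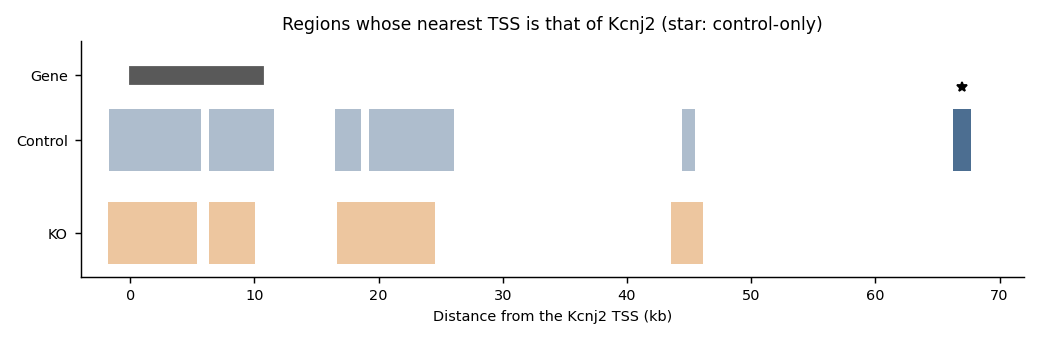
Regions whose nearest TSS is that of *Kcnj2*, by distance from this TSS in kb, with the gene body in gray, 6 control regions in blue and 4 KO regions in orange. The starred control-only region is centered at 67.0 kb, and the KO region at 20.6 kb spans 2 control regions.

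*Kcnj12* (ENSMUSG00000042529, chr11:61022564-61071131, plus strand) encodes Kir2.2, which forms inward rectifier channels together with Kir2.1. Its first TSS lay in a shared region of 5061 bp with 4 subpeaks in control and 5366 bp with 5 subpeaks in KO CMs. The RefSeq promoter of the gene sits at a second TSS 43240 bp farther into the gene, and neither list covered any of its 300 bp. The gene window held 7 control and 8 KO regions, which covered 18952 and 20625 bp, a log2 ratio of 0.12. *Kcnj12* had 2 control-only and 2 KO-only regions, all with 2 subpeaks, and both lists held a lower part of the union in common (44.3%) than at the other inward rectifier genes. The control-only regions were chr11:61063981-61064981, 808 bp from a KO region, and chr11:61074264-61076956, downstream of the gene. The KO-only regions were chr11:61050444-61053267, of 2824 bp, and chr11:61067931-61069217.

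*Kcnj3* (ENSMUSG00000026824, chr2:55435970-55598145, plus strand) and *Kcnj5* (ENSMUSG00000032034, chr9:32314707-32344350, minus strand) encode Kir3.1 and Kir3.4. These form the acetylcholine-activated channel by which the vagus nerve slows the heart, and which is known best from atrial and nodal cells. Both genes were marked at their TSS in both lists. At *Kcnj3*, the control list had separate regions of 1815, 4342 and 7318 bp around the start of the gene. In the KO list, 1 region of 15397 bp with 7 subpeaks (chr2:55430636-55446032) overlapped these 3 and a further control region outside the window. In all, 7 control regions covered 24964 bp and 4 KO regions 27425 bp of the window, a log2 ratio of 0.14. The *Kcnj3* intron also held a shared region centered 43088 bp from the TSS in control CMs, of 8681 bp in control and 8386 bp in KO CMs with 5 subpeaks in each. Next to these broad regions stood 3 control-only regions of 697 to 1172 bp and 2 KO-only regions of 1440 and 2536 bp, with 2 subpeaks each. The KO-only region closest to the TSS (chr2:55451037-55452476) held a MEF2 match, shown since it is the single MEF2 match at the 9 genes that only the KO list covered (GRCm38, chr2:55452258-55452327, plus strand).
Kcnj3 intron, MEF2: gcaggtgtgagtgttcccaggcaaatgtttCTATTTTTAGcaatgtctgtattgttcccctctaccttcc

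At *Kcnj5*, control regions covered 27690 bp and KO regions 23823 bp of the window, a log2 ratio of -0.22. The control list held 7 separate regions along the gene. The KO list held 3, of which 1 of 14524 bp with 8 subpeaks around the TSS overlapped 3 control regions, and 1 of 6100 bp at the other end overlapped 2. Between the KO regions lay a control-only region, chr9:32323605-32329882, in an intron and centered 17607 bp from the TSS. It was 6278 bp wide and had 4 subpeaks, whereas the KO list covered none of it, and it ranked as number 14 in width among the 15844 control-only regions of the list. It was separated from the nearest KO region by 600 bp. With a minimum of 3 subpeaks per region, the log2 ratio of *Kcnj5* changed sign, to 0.64. The control-only region held 2 GATA matches and 1 MEF2 match. The stretch with the MEF2 match and the nearer GATA match is printed on the strand of the gene with both in capitals (GRCm38, chr9:32328982-32329169, minus strand), as part of the widest genotype-only region at the 9 genes.
Kcnj5 intron, MEF2 and GATA: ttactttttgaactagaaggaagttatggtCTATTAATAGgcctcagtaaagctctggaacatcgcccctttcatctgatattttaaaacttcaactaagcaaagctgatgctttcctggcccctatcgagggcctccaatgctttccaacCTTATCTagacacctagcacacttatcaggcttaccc
For comparison, the 250 bases before the RefSeq start of *Kcnj5* (GRCm38.p6, chr9:32344345-32344594, minus strand), covered in full by both lists, carried 2 GC boxes, in capitals.
Kcnj5 promoter: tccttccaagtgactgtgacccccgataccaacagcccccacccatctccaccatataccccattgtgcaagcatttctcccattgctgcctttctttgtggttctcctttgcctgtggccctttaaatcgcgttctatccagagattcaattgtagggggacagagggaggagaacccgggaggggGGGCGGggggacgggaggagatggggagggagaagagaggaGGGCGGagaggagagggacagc
The 300-bp promoter of *Kcnj5* had a GC content of 58.3% and 10 CpGs, closer to the median promoter than that of *Kcnj2*. Covered length was thus lower in KO CMs at *Kcnj5* and higher at *Kcnj3*, whose products assemble into 1 channel.

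*Kcnj11* (ENSMUSG00000096146, chr7:46093953-46100764, minus strand) encodes Kir6.2, the pore of the ATP-sensitive channel that opens when cellular ATP falls. All 5 of its annotated TSSs lay in a shared region in both lists. In control CMs this was a single region of 9761 bp with 6 subpeaks. In KO CMs the same stretch was split into a region of 6843 bp with 4 subpeaks over the gene and one of 1680 bp with 3 subpeaks upstream, where it overlapped the end of *Abcc8*, the gene for the sulfonylurea receptor SUR1. The covered length was 9761 bp in control and 8523 bp in KO CMs, a log2 ratio of -0.20, and the ratio was 0.035 over the gene body alone. The difference thus lay upstream of the gene and not over it.

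*Kcnd2* (ENSMUSG00000060882, chr6:21215503-21729805, plus strand) encodes Kv4.2, a pore subunit of the fast transient outward current of the mouse ventricle. Its window was the least covered of the 9, with 8617 bp in 5 control regions and 5289 bp in 3 KO regions, a log2 ratio of -0.70 (0.614-fold). Around the TSS the control list held regions of 886 and 1015 bp with 2 subpeaks each, and the KO list held 1 region of 2128 bp with 4 subpeaks across both. The subpeaks at the TSS thus added up to the same number in both lists, and the lower sum came from the intron. There, 2 control-only regions of 1487 and 1899 bp (chr6:21277246-21278732 and chr6:21324048-21325946) each held a GATA match, and a shared region centered 95154 bp from the TSS in control CMs was 3330 bp wide in control and 1957 bp in KO CMs. The KO list held 1 KO-only region of 1204 bp, centered 192134 bp from the TSS. All 5 control regions of *Kcnd2* had 2 subpeaks, so no control region was left and no ratio could be given when 3 or more were required. With regions under 1000 bp left out, the log2 ratio was -0.55, within 1.5-fold. The promoter of *Kcnd2* is the most CpG-rich of the 7 members with a RefSeq promoter sequence, with 26 CpGs in 300 bp and a GC content of 68.7%, and both lists covered it in full.

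*Kcnip2* (ENSMUSG00000025221, chr19:45791839-45816061, minus strand) encodes KChIP2, the cytosolic subunit that binds Kv4 channels and brings them to the cell surface. It carried 1 region in each list, over the cluster of 5 TSSs at its start, of 4327 bp with 2 subpeaks in control and 3749 bp with 3 subpeaks in KO CMs (log2 ratio -0.21). The other 4 annotated TSSs, inside the gene, were covered in neither list. The KO region reached less far into the gene and farther upstream than the control region, and 12.4% of the gene body was covered in control and 8.2% in KO CMs. The ratio depended on the window, since it was -0.60 over the gene body alone, past 1.5-fold, and 0.18 with 10 kb added on each side. Its promoter lay within the region in both lists and is printed for 250 bases before the RefSeq start (GRCm38.p6, chr19:45816064-45816313, minus strand), with GC boxes in capitals, as the one marked stretch of this gene.
Kcnip2 promoter: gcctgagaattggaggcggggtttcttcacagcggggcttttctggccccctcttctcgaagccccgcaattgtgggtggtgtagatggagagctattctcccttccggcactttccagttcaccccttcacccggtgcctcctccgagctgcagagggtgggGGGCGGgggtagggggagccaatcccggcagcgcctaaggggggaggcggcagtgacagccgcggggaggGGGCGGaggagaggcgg
Including the 50 bases that follow, its GC content was 67.0% with 18 CpGs.

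*Kcnq1* (ENSMUSG00000009545, chr7:143106362-143427042, plus strand) encodes Kv7.1, the pore of the slow delayed rectifier. It had the most regions, 17 in control and 15 in KO CMs, which covered 51878 and 52862 bp, a log2 ratio of 0.027. A dense block of H3K27ac lay over the start of the gene. The control list divided its first part into regions of 7837, 10922 and 1391 bp, and the KO list joined these into 1 region of 21785 bp with 11 subpeaks, the widest and most often merged of all regions at the 9 genes. The 2 outermost of the 7 annotated TSSs lay just before the block in both lists. The third, 383 bp into the gene, lay inside the KO region, whose start was at 143106678, and not inside the control region, whose start was at 143106836. Deep in the gene, a shared region covered the start of *Kcnq1ot1*, the antisense noncoding RNA of the imprinted domain, and was 820 bp wide with 2 subpeaks in control and 2714 bp with 3 subpeaks in KO CMs.

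The other intronic regions of *Kcnq1* differed between the lists in several places. There were 4 control-only regions, of 663 to 1578 bp, and 4 KO-only regions, of 772 to 1921 bp, all with 2 subpeaks. Toward the end of the gene the control list held a region of 6716 bp, of which the KO list covered 1432 bp in 1 region and the beginning of another. An ERR match near the start of this control region was outside both KO regions, and a MEF2 match lay in the control-only region chr7:143151059-143152636. Both are shown with 30 bases on each side (GRCm38, chr7:143407280-143407348 and chr7:143152089-143152158, plus strand), because the control list alone covered them.
Kcnq1 intron, ERR: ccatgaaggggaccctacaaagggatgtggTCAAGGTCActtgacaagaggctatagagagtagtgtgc
Kcnq1 intron, MEF2: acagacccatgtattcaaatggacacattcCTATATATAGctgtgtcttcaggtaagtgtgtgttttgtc

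*Kcnh2* (ENSMUSG00000038319, chr5:24319589-24351604, minus strand) encodes ERG1, the pore of the rapid delayed rectifier. Its 5 control regions all had a counterpart in KO CMs, and the covered length was 19922 and 20215 bp, a log2 ratio of 0.021. The region at its outer TSS was 6045 bp wide with 4 subpeaks in control and 4399 bp with 3 subpeaks in KO CMs, and the region at an inner TSS 22013 bp into the gene was 4533 bp wide with 3 subpeaks and 4771 bp with 4 subpeaks. In addition, the KO list held a region at chr5:24321519-24322852, of 1334 bp with 2 subpeaks, which contained a further annotated TSS near the end of the gene. This was the one KO-only region at the 9 genes that held a TSS of its gene, and it lay 284 bp from a control region. The region at the outer TSS held 2 of the 3 ERR matches of *Kcnh2*, and both lists covered all 3. These 2 intronic stretches are shown on the strand of the gene (GRCm38, chr5:24350074-24350142 and chr5:24349213-24349281, minus strand), since no other region at the 9 genes held a pair.
Kcnh2 intron, ERR, first: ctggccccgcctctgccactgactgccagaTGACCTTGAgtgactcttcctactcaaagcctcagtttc
Kcnh2 intron, ERR, second: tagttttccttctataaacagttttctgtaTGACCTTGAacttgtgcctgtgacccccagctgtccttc

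In all, the 9 genes had 36 annotated TSSs, of which 26 lay inside regions of both lists, 8 inside neither, 2 inside KO regions alone (at *Kcnq1* and *Kcnh2*) and 0 inside control regions alone. A promoter, taken from 1000 bp upstream to 100 bp downstream of any TSS, was covered at 9 of 9 genes in both lists, beside 50.2% of all protein-coding genes in the control and 52.3% in the KO list. The regions at the TSSs of *Kcnj3*, *Kcnd2* and *Kcnip2* had 2 subpeaks in control CMs, the lowest number possible, and 7, 4 and 3 in KO CMs. There the regions of *Kcnj3* and *Kcnd2* joined several control regions. The number was also higher in KO CMs at *Kcnj2*, *Kcnj5*, *Kcnj12*, *Kcnq1* and the inner TSS of *Kcnh2* described above. It was lower at *Kcnj11* (6 in control and 4 in KO CMs) and at the outer TSS of *Kcnh2* (4 and 3). Regions with 3 or more subpeaks covered promoters of 28.5% of all protein-coding genes in the control and 35.1% in the KO list. The higher numbers in KO CMs were thus not particular to these genes.

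Several KO regions joined separate control regions. Of the 34 shared KO regions at the 9 genes, 7 (20.6%, 10.3 to 36.8) overlapped more than 1 control region, beside 12.3% of shared KO regions in the whole list. Of 40 shared control regions, 4 (10%, 3.96 to 23.1) overlapped more than 1 KO region, beside 7.31%. Both intervals included the share of the whole list. At *Kcnj3*, *Kcnj5*, *Kcnq1* and *Kcnd2* joined KO regions lay at the promoter, and at *Kcnj11* it was the control list that held the longer stretch.

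The motif matches of the 9 windows were mostly at positions that both lists covered. ERR matches stood at 9 positions, 7 in both lists, 2 in the control list alone (the downstream match of *Kcnj2* and that of *Kcnq1* shown above) and 0 in the KO list alone. They lay at *Kcnj2*, *Kcnj3*, *Kcnj11*, *Kcnq1* and *Kcnh2*, and none was in a genotype-only region. MEF2 matches stood at 7 positions, 4 in both lists, 2 in the control list alone and 1 in the KO list alone, and GATA matches at 40 positions, with 28, 8 and 4. In the whole lists, 59.1% of ERR, 64.3% of MEF2 and 57.3% of GATA positions were in both, compared with 77.8%, 57.1% and 70% at these genes. Per Mb of region, the 9 genes had 48.8 ERR matches in control and 39.4 in KO CMs, against 32.7 and 33.6 in all regions, from 9 and 7 matches in all. No ERR match lay in the central 200 bp of a region at these genes, where 0.657% of all control and 0.674% of all KO regions held one.

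Within each class, members went both ways. The 5 *Kcnj* genes had 24 control and 19 KO regions that covered 93956 and 91326 bp, with 6 control-only and 4 KO-only regions. The voltage-gated genes with *Kcnip2*, 4 in all, had 28 and 25 regions that covered 84744 and 82115 bp, with 6 control-only and 6 KO-only regions. Without *Kcnd2* this class covered 76127 and 76826 bp, so that its lower sum in KO CMs rested on this gene.

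Another 27 genes for potassium channel subunits served as a comparison. Of these, 19 had regions in both lists, with a median log2 ratio of 0.17. Covered length was more than 1.5-fold higher in KO CMs at 5 of these 19, more than 1.5-fold lower at 1, and within these limits at 13. Among all protein-coding genes with a region in both lists, 16.3% were past 1.5-fold higher and 8.6% past 1.5-fold lower. Of the remaining genes, 3 had regions in the KO list alone, 4 in the control list alone and 1 in neither. Promoters were covered at 10 of the 27 in both lists, at 3 (*Kcne3*, *Kcnab2* and *Kcnk2*) in the control list alone and at 3 (*Kcnj8*, *Kcnj14* and *Kcna4*) in the KO list alone. Of their regions, 22 of 94 in KO CMs were KO-only, beside 21.5% of all KO regions. In control CMs 29 of 104 were control-only, beside 29.5% of all control regions.

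Among the partners of the members, *Abcc9*, which encodes the receptor SUR2 that forms ATP-sensitive channels with Kir6.2 in the ventricle, had 15364 bp in 6 control regions and 25126 bp in 9 KO regions, of which 3 were KO-only (log2 ratio 0.71). Its neighbor *Kcnj8*, for Kir6.1, had no control region and 1266 bp in the KO list. *Kcnj8* is also in the list of smooth muscle and pericyte markers used above. Of the others in that list, *Rgs5* and *Pdgfrb* held no region in either genotype, and *Myh11* had 7526 and 7581 bp with its promoter covered in both. Whether the *Kcnj8* region came from other cell types was not tested. *Abcc8* had 18179 and 15536 bp (log2 ratio -0.23). Its window overlaps that of *Kcnj11* and includes the stretch upstream of *Kcnj11* where the KO list was split, so both ratios count these bases. The genes of the ATP-sensitive channel did not share a direction, with more covered length in KO CMs at *Abcc9* and less at *Kcnj11* and *Abcc8*. *Kcna4*, for the slow transient outward channel Kv1.4, had 1410 bp in control and 2499 bp in KO CMs (0.83), and *Kcna7*, for Kv1.7, 1839 and 3355 bp (0.87). *Kcnj14*, for Kir2.4, had 765 and 2628 bp (1.78), and *Kcnn1*, for a calcium-activated channel, 2810 and 4276 bp (0.61). *Kcnab1*, for a Kv channel β subunit, was the gene with less, at 16498 and 10646 bp (-0.63). *Kcnj16*, next to *Kcnj2*, had 1782 and 2613 bp (0.55). The genes in 1 list alone had short regions, with 1539 bp for *Kcnc1* and 1044 bp for *Kcnn3* in KO CMs, and 929 bp for *Kcne3*, 775 bp for *Kcnab2*, 697 bp for *Kcnk1* and 2171 bp for *Kcnk2* in control CMs.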

How the data were processed

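H3K27ac CUT&RUN of CMs was grouped by genotype and antibody from the labels (3 replicates each, 12 samples), and the labels name no batch. The authors used bowtie2 2.4.2 to align reads to GRCm38 and samtools to remove duplicates, then called regions per replicate against IgG with Homer 4.11.1 and merged them, keeping regions found in at least 2 of 3 replicates. The authors deposited 1 list per genotype with start and end positions, a name and a score. The score is the same for every region and was not used. Merging joins nearby peaks of different replicates, so region number and width depend on it. Sequencing depth per sample is unknown, and Wilson intervals (95%) of shares reflect numbers of regions only.

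Regions off chromosomes 1 to 19, X and Y (21 in control and 14 in KO CMs) were dropped. Deposited starts were read as counted from 0. Regions were shared at 1 bp or more of overlap, and covered length was the union of bases inside the gene window. No test was run, since there was 1 list per genotype. Of the 9 genes, 7 matched a RefSeq promoter sequence (GRCm38.p6), and *Kcnj11* and *Kcnq1* did not. All 9 members were named, as were, of 27 other channel genes, those over 1.5-fold apart or in 1 list alone, neighbors and partner subunits. Some items are not reported here. The members and lists were chosen with earlier results of these data known. Scripts were tested on simulated data and used Python 3.11.15, numpy 2.4.6, scipy 1.17.1, pysam 0.24.0 and matplotlib 3.10.9. Alternatives changed the overlap, the width or subpeaks required, the gene window and the promoter limits.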

Additional observations from a re-analysis of the deposited data

How the results depend on the processing

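With a reciprocal overlap of 50% required, KO-only regions at the 9 genes numbered 22 of 44 and control-only regions 30 of 52, beside 42.4% of all KO and 51.2% of all control regions under the same rule. Among regions with 3 or more subpeaks in both lists, 3 of 22 control regions were control-only, beside 31.2% of all such regions, and 7 of 26 KO regions were KO-only, beside 37.4%. The balance between 12 control-only and 10 KO-only regions thus turned over. It also did among regions at least 1000 bp wide, with 9 of 42 control-only and 12 of 39 KO-only, beside 22.6% and 21.3% of all such regions. Equal numbers of the widest regions gave 9 of 43 and 15 of 44, beside 22% and 25.2%, and *Kcnq1* then had 2 control-only and 9 KO-only regions. That rule shortens the control list alone, and the shares of the whole lists turned over with it. Assignment by nearest TSS in place of the window gave 4 KO-only of 26 and 5 control-only of 35 regions, beside 21.5% and 29.5% of all regions. Fewer regions were assigned since other annotated genes start inside *Kcnj3*, *Kcnq1* and *Kcnd2*. Of the alternative values of the main counts, medians and promoter coverage, 26 stayed within 1.5-fold of the main value and 5 did not. These 5 were both counts under reciprocal overlap, both under nearest TSS, and the control-only count with 3 or more subpeaks. The median log2 ratio became positive with other windows. The median over 7 genes was -0.016 with 3 or more subpeaks, since *Kcnd2* and *Kcnip2* then had no control region. Promoters were then covered at 6 of 9 genes in control and 9 of 9 in KO CMs, beside 28.5% and 35.1% of all protein-coding genes. With regions within 1000 bp counted as shared, *Kcnj5* had 0 control-only and *Kcnh2* 0 KO-only regions. No paired analysis was possible because each genotype has 1 merged list, and for the same reason no replicate could be left out. A change of signal inside a shared region cannot be seen in these lists, and depth limits every region that is in 1 list alone to an unknown degree.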

Other observations

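The genes of the acetylcholine-activated channel were marked in CMs whose lists held unequal amounts at atrial marker genes. *Kcnj5* was covered over 69.8% of its window in control and 60.1% in KO CMs, and *Kcnj3* over 14.5% and 15.9%. The median of all protein-coding genes with a region in either list was 11.4% and 12.4%. Of the atrial markers, *Myl7* and *Sln* held no region, *Nppa* had 0 and 866 bp, and *Bmp10* 905 and 631 bp. *Myl4*, the remaining atrial marker, had 11147 and 12144 bp with its promoter covered in both lists. Of the nodal markers, *Tbx3* had 4715 and 6959 bp with its promoter covered in both lists, *Hcn4* had 7488 and 8412 bp without promoter coverage, *Shox2* had 0 and 1028 bp, and *Isl1* had none.

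The Kv channel genes *Kcnd2*, *Kcnd3* and *Kcna5* were unequally marked. *Kcnd2* had 5 control and 3 KO regions with 8617 and 5289 bp. Its paralog *Kcnd3* (Kv4.3), chosen after its values were seen, had 23 and 20 regions with 48581 and 51427 bp, of which 10 were control-only and 5 KO-only (log2 ratio 0.082). *Kcna5* (Kv1.5), also chosen after its values were seen, had 1 region in each list, of 8473 and 8503 bp within the window. The covered length of the 8 CM marker genes was higher in KO CMs (log2 ratio 0.32 of the sums), with the greatest difference in bp at *Actn2* (33783 and 53473 bp). Of the single genes, *Mybpc3* stood at 0.98, *Ryr2* at 0.41, *Tnnt2* at 0.18, *Tnni3* at 0.15, *Pln* at 0.00, *Ttn* at -0.15 and *Myh6* at -0.25.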
